A study of Homo sapiens with 40 samples.

Results

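The comparison described here asks whether WT and PARP1-KO cells responded differently when topotecan (Tpc) was given together with the TDP1 inhibitor OL9-119. It rests on 16 of the 40 libraries of the series, chosen by their labels: 4 of untreated WT cells, 4 of WT cells given Tpc + OL9-119, 4 of untreated PARP1-KO cells and 4 of PARP1-KO cells given Tpc + OL9-119. HEK293A is an adherent human embryonic kidney line. The PARP1-KO line was 1 clone of it with a homozygous deletion in PARP1, which the titles call a knockout and a further label a knockdown. OL9-119 was used at 5 µM in both genotypes and Tpc at 100 nM in WT and 50 nM in PARP1-KO cells, so genotype and Tpc dose cannot be told apart in any difference given below. Treated cells were harvested after at least 5 h and carried 0.1% DMSO as solvent, whereas untreated cells received none. The labels call the replicates biological and the methods of the study call them technical, so p-values measure the spread between these libraries, which may be technical.

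For each gene, the response of a genotype is the log2 fold change of the combination over untreated cells of that genotype. The interaction is the response of PARP1-KO minus that of WT cells, so it is negative where PARP1-KO cells responded less upward than WT cells. Genes with an adjusted p-value under 0.01 are called differentially expressed genes (DEGs), and expression is given in CPM, counts scaled to a common library size.

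Topoisomerase 1 (TOP1) relaxes supercoiled DNA through a transient covalent bond to a nicked strand, and Tpc traps this intermediate. TDP1 releases the trapped protein from the DNA end, while PARP1 binds DNA breaks and recruits repair proteins through poly(ADP-ribose) chains. DNA breaks can set off NF-κB, a transcription factor held back by IκBα that switches on chemokine genes and, as feedback, the genes of its own inhibitors. Damaged cells can also hold the cell cycle before mitosis, where genes such as PLK1 and CDC20 are normally transcribed. ATF4 is the transcription factor of the integrated stress response, and it raises genes of amino acid transport, amino acid synthesis and tRNA charging. Heat shock proteins are chaperones that keep other proteins folded.

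PARP1 was measured at 32.9 to 43.4 CPM in the 8 PARP1-KO libraries and at 759.9 to 892 CPM in the 8 WT libraries. Its level in PARP1-KO cells was 4.25% of WT without treatment and 4.88% with the combination (log2 −4.56 and −4.35; exact two-sided permutation p = 0.0286 in each, the smallest that 70 divisions can give). KRT8, KRT18 and VIM, the markers set for this line, lay at 549 to 1006, 240.2 to 520.1 and 507 to 959.7 CPM, whereas PTPRC, CD3E, CDH5 and ALB did not exceed 0.61 CPM in any library. The summed level of all 8 markers of other cell types was 40.3 to 57.4 CPM in untreated and 36.0 to 52.99 CPM in treated WT libraries, and 25.6 to 34.7 and 29.2 to 33.99 CPM in PARP1-KO libraries, with COL1A1 and COL3A1 the highest. None of these 8 or of the 3 line markers had an interaction past the threshold with edgeR (0 and 2 under an unadjusted p-value of 0.05) or DESeq2. Total counts per library ran from 3455043 to 20379777.

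A pair of PARP1-KO libraries, both labelled replicate 3, went against their labels. The library labelled PARP1-KO Tpc + OL9-119 replicate 3 had MT-ND5, a mitochondrially encoded subunit of respiratory complex I, at 2138 CPM. The other PARP1-KO libraries of that group had 544 to 708 CPM, and the untreated ones 1618 to 2170 CPM. ERC1 lay at 111 CPM in it and at 45.0 to 51.4 CPM in the others, and genes spanning at least 500 kb had a mean log2 level of 0.03 relative to untreated PARP1-KO cells, against −0.50 to −0.47. The library labelled PARP1-KO DMSO replicate 3, which enters an alternative comparator and the fit of all 40 libraries, stood apart in the opposite direction, with MT-ND5 at 710.0 CPM against 1639 to 2071 and ERC1 at 55.9 CPM against 97.1 to 103.6 in the other DMSO-treated PARP1-KO libraries. In these genes each of the pair lay nearer to the group of the other than to its own, and whether their labels were exchanged was not tested. The main counts are given with and without PARP1-KO combination replicate 3. When every library was thinned to 3455043 counts, 15580 to 16938 genes were detected in 4 WT libraries (untreated replicates 1 and 3, combination replicates 1 and 2) and 19715 to 19923 in the other 4, against 17949 to 21207 in PARP1-KO libraries. With library complexity as a covariate 71 interaction DEGs were found, and 63 without WT untreated replicate 3, the lowest.

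**Figure D1:**
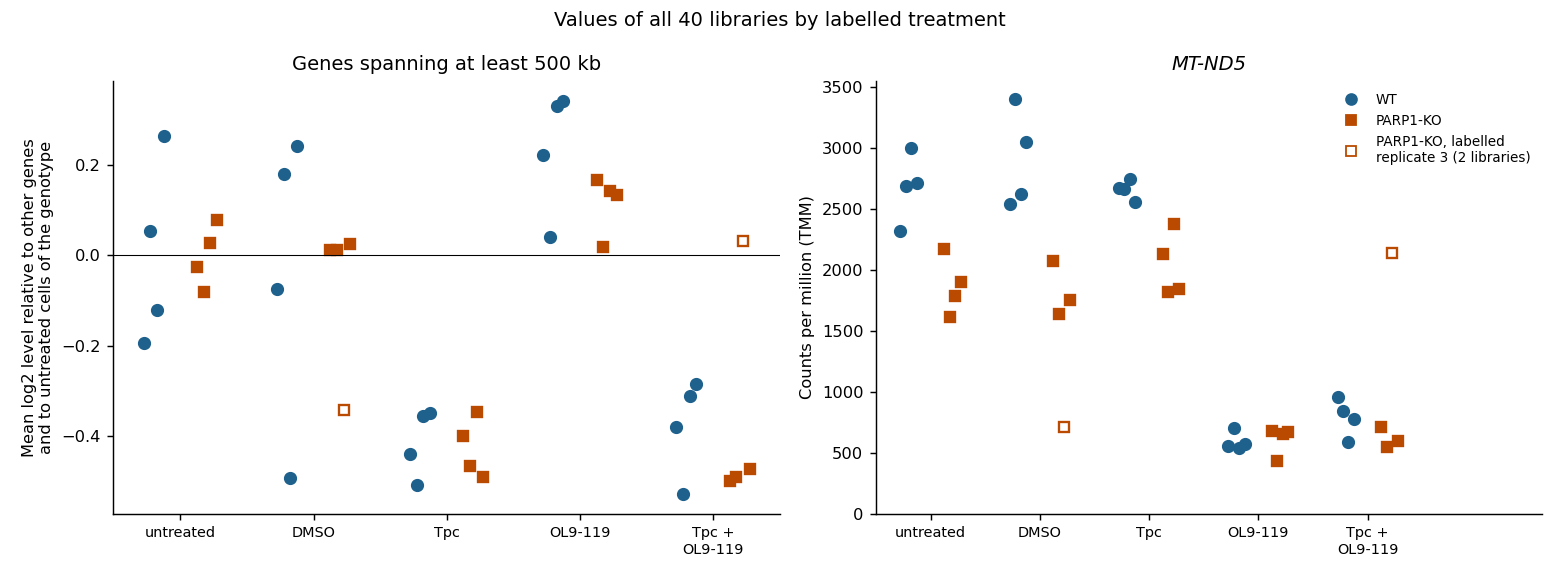
Mean log2 level of 145 genes spanning at least 500 kb relative to untreated cells of the same genotype, and MT-ND5 in CPM, in all 40 libraries by condition. Open squares mark the PARP1-KO libraries labelled replicate 3 of DMSO and of Tpc + OL9-119. The former lies close to the Tpc-treated libraries of its genotype in the long genes (−0.34) and to the OL9-119-treated ones in MT-ND5 (710.0 CPM), and the latter among the untreated ones in both (0.03 and 2138 CPM). A DMSO-treated WT library lies at −0.49 in the long genes.

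The combination changed inflammatory, stress, mitotic and heat shock genes in WT cells, and most of the genes with the largest WT responses had far smaller ones in PARP1-KO cells. In WT cells, 509 genes were upregulated (2.03% of 25037 genes tested) and 514 were downregulated (2.05%), together 4.09%. In PARP1-KO cells, 0 genes passed with edgeR and 0 with DESeq2, while 829 (3.31%) had an unadjusted p-value under 0.05 with edgeR and 644 with DESeq2. Without PARP1-KO combination replicate 3, 2 genes passed with edgeR. These counts come from joint fits, in which both genotypes share the dispersion estimates. With each genotype fitted alone, 225 genes passed in WT and 5 in PARP1-KO cells, or 267 in PARP1-KO cells without combination replicate 3. The interaction was tested directly and gave 58 DEGs (0.232%), of which 44 were negative (0.176%) and 14 positive (0.0559%). An unadjusted p-value under 0.05 was found for 2877 genes (11.5%).

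All 44 genes with a negative interaction were upregulated in WT cells, by 0.55 to 6.37 on the log2 scale with a median of 1.44. Their response in PARP1-KO cells ran from −0.45 to 0.55 with a median of 0.12, and its 95% interval included 0 in 40 of them. All 14 genes with a positive interaction were downregulated in WT cells, at −2.38 to −0.81 with a median of −1.35. In PARP1-KO cells they ran from −0.52 to 0.04 with a median of −0.17, and the interval included 0 in 9. Both responses are terms of the interaction that chose these genes, so these ranges describe the choice. The intervals come from the joint fit, with dispersion shared between the genotypes and PARP1-KO combination replicate 3 included. An interval that includes 0 therefore does not show that a response was absent. The median interaction over all genes tested was 0.04.

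Library by library, the mean log2 level of the 44 genes over untreated cells of the same genotype was 1.88 to 1.94 in the WT combination libraries. It was 0.11, 0.16, −0.10 and 0.19 in replicates 1 to 4 of the PARP1-KO combination, the negative value being that of replicate 3. For the 14 genes it was −1.42 to −1.33 in WT and −0.24, −0.21, −0.01 and −0.29 in PARP1-KO cells, so replicate 3 was again the nearest to 0. All these libraries took part in the choice of the genes, so the difference between the genotypes in these means describes that choice.

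**Figure D2:**
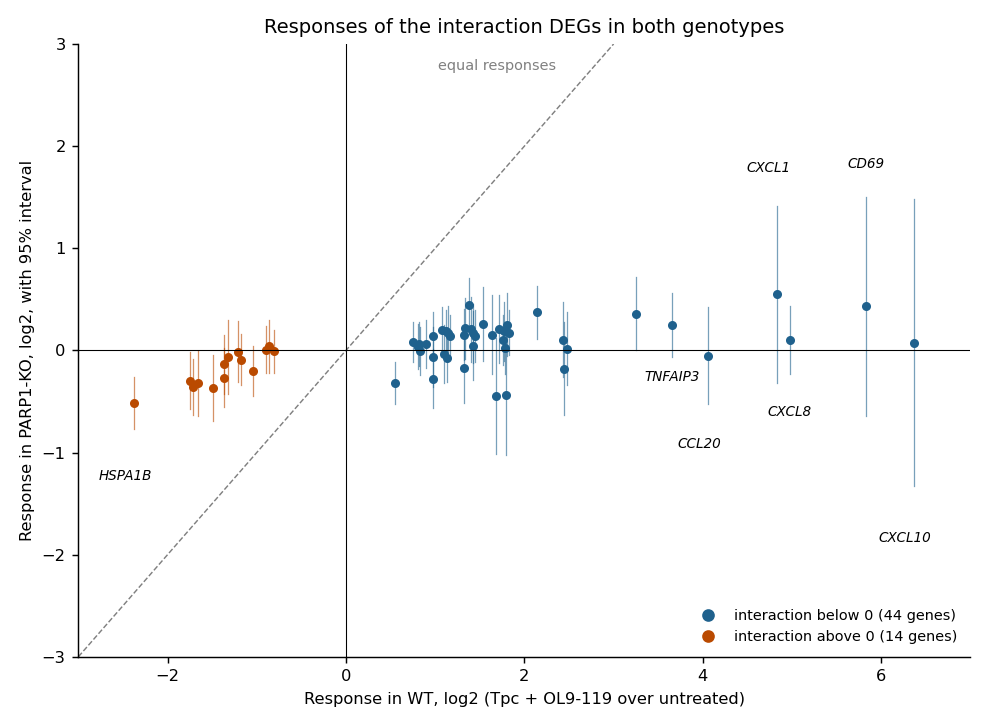
Response to Tpc + OL9-119 (log2 fold change over untreated cells) of the 58 interaction DEGs in WT cells on the x axis and in PARP1-KO cells on the y axis, with the 95% interval of the latter. The dashed line marks equal responses. The 44 genes with a negative interaction lie at 0.55 to 6.37 in WT and at −0.45 to 0.55 in PARP1-KO cells, and the 14 with a positive one at −2.38 to −0.81 and −0.52 to 0.04.

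The CPM ranges of treated and untreated WT libraries did not overlap for any of the 58 genes, against 9.01% of all genes tested. All 58 were WT DEGs and the WT response is a term of the interaction that chose them, so this separation was nearly fixed by the choice. In PARP1-KO cells they did not overlap for 6 of the 44 and 1 of the 14 genes, against 4.46% of all genes. Without PARP1-KO combination replicate 3 they did not overlap for 20 of the 44 (18 above and 2 below) and 5 of the 14 genes (all below), against 13.5% of all genes. Without PARP1-KO combination replicate 3, 37 genes remained interaction DEGs (8 positive and 29 negative), all of them among the 58. DESeq2 called 161 genes, among them 55 of the 58, and gave the other 3 no adjusted p-value. Exons of 26 of the 58 genes overlap those of another gene, and because the strand setting of the counting is not stated their counts may include reads of that neighbour. Among the named genes these are TNFAIP3, SLC7A11, IER3, JUNB, DDIT3, MTHFD2, KIF20A, PLK1, HSPA8, HSPA1B and DNAJB1. Leaving out WT untreated replicate 4 gave 107 DEGs, and leaving out WT combination replicate 3 or PARP1-KO untreated replicate 4 gave 38 each.

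NF-κB target genes had the most negative interactions. In the list of induced chemokines, cytokines and surface proteins, 8 of 22 genes tested were interaction DEGs (CXCL8, CCL20, IER3, TNFRSF9, CXCL1, CD69, CXCL10 and ICAM1), all negative, and 13 were upregulated in WT cells. The list median was 1.73 in WT and 0.09 in PARP1-KO cells. Among the subunits and feedback inhibitors of NF-κB, 6 of 14 genes were negative (TNFAIP3, NFKBIA, NFKB1, NFKB2, RELB and BIRC3), with medians of 1.27 and 0.16.

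CXCL8 encodes interleukin 8, a chemokine that attracts neutrophils, and lies at chr4:73740519-73743716 (hg38, plus strand). It was measured at 12.3, 15.8, 6.19 and 11.05 CPM in untreated and at 452, 364, 289.6 and 328 CPM in combination-treated WT libraries. In PARP1-KO cells the values were 37.7, 37.3, 35.4 and 33.8 CPM without and 37.3, 39.0, 36.8 and 41.8 CPM with the combination. The WT groups were far apart, whereas the PARP1-KO groups overlapped and both lay above untreated and below treated WT cells. The WT response was 4.97, the PARP1-KO response 0.10 (95% interval −0.23 to 0.44) and the interaction −4.87 (SE 0.244, adjusted p = 2.2e-15).

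TNFAIP3 encodes A20, a ubiquitin-editing enzyme that shuts NF-κB signalling down. Its values were 16.5, 13.2, 8.78 and 19.7 CPM in untreated and 161, 196, 183 and 189.6 CPM in treated WT libraries. PARP1-KO libraries had 50.1, 49.6, 44.6 and 48.6 CPM untreated and 62.4, 61.3, 50.9 and 54.5 CPM treated. All treated PARP1-KO libraries lay above the untreated ones, by a small margin, and below every treated WT library. The interaction was −3.40 (SE 0.229, adjusted p = 6.04e-12), from responses of 3.65 (WT) and 0.25 (PARP1-KO).

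NFKBIA, the gene of IκBα, had 45.8, 46.5, 56.9 and 52.7 CPM in untreated and 198, 262, 214 and 214 CPM in treated WT libraries. PARP1-KO libraries had 71.0, 85.2, 75.3 and 75.3 CPM untreated and 101.8, 115.3, 78.0 and 102.4 CPM treated. Replicate 3 of the treated PARP1-KO libraries fell within the untreated range and the other 3 lay above it. The PARP1-KO response was 0.37 (95% interval 0.11 to 0.63, adjusted p = 1, or 0.00457 with PARP1-KO libraries fitted alone without replicate 3), and the interaction was −1.77 (SE 0.184, adjusted p = 1.23e-07).

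CCL20, a chemokine for lymphocytes and dendritic cells, ran at 2.62 to 6.17 CPM in untreated and 63.6 to 91.2 CPM in treated WT libraries, and at 10.4 to 15.5 and 8.47 to 14.5 CPM in PARP1-KO cells (interaction −4.12, SE 0.342, adjusted p = 1.36e-09). TNFRSF9, a costimulatory receptor of the TNF receptor family, had an interaction of −2.33 (SE 0.259, adjusted p = 5.85e-07). IER3, an early-response survival gene, rose by 1.79 in WT cells and had a response of 0.02 in PARP1-KO cells (interaction −1.77, adjusted p = 8.72e-08). The neutrophil chemokine CXCL1 and the leukocyte activation antigen CD69 were lowly expressed. CXCL1 ran at 0.271 to 1.76 CPM in untreated and 16.004 to 33.4 CPM in treated WT libraries (interaction −4.28, SE 0.634, adjusted p = 0.000145). CD69 ran at 0 to 0.502 and 10.7 to 29.2 CPM (interaction −5.39, SE 0.826, adjusted p = 0.000252), with 0 counts in 1 untreated WT library, so the size of its fold change depends on few counts.

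NFKB1, NFKB2 and RELB encode NF-κB subunits. NFKB1 had an interaction of −1.50 (SE 0.2399, adjusted p = 0.000468), NFKB2 of −1.26 (SE 0.2001, adjusted p = 0.000451) and RELB of −1.49 (SE 0.274, adjusted p = 0.00351). For all 3, treated PARP1-KO libraries lay below treated WT libraries without overlap. RELB was no longer called without PARP1-KO combination replicate 3 (adjusted p = 0.0155), and in 5 of the 16 leave-one-out fits in all. With DMSO-treated cells as comparator, 6 genes of the induced list and 4 of the subunits and inhibitors were called, and CD69, NFKB1 and NFKB2 were not (adjusted p = 0.0222, 0.022 and 0.0214). Without both PARP1-KO libraries labelled replicate 3, that comparator gave 5 and 4 calls, with adjusted p-values of 0.112, 0.0763 and 0.101 for CD69, NFKB1 and NFKB2.

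The promoters of these genes were read because NF-κB binds the κB motif. RefSeq promoters (GRCh38.p14, 250 bases before each start site) matched 45 of the 58 DEGs. The motif GGNNTTTCC on either strand was present in 14 of 47 windows of genes with a negative interaction (29.8%, 13 of 34 genes) and in 0 of 13 windows of genes with a positive one, against 5.48% of 35114 promoters. The AP-1 motif TGANTCA was in 6 of the 47 windows (12.8%, all promoters 6.57%) and the ATF4 composite motif TGATGNAA in 3 (6.38%, all promoters 3.14%). The AP-1 matches lay in no interaction DEG of the AP-1 list described below, and the ATF4 matches in none of the ATF4 list. A match is a description of these letters and not a measured binding site. The windows of CXCL8, TNFAIP3 and NFKBIA, a chemokine and both inhibitors described above, are shown 5′ to 3′ in the direction of transcription, with the κB matches in capitals. CXCL8 is at chr4:73740319-73740568 on the plus strand, TNFAIP3 at chr6:137867009-137867258 on the plus strand and NFKBIA at chr14:35404750-35404999 on the minus strand.
CXCL8: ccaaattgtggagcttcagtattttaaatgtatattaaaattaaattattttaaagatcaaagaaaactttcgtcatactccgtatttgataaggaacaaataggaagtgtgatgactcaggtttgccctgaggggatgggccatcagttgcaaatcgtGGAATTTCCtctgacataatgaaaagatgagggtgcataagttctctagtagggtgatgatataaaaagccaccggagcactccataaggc
TNFAIP3: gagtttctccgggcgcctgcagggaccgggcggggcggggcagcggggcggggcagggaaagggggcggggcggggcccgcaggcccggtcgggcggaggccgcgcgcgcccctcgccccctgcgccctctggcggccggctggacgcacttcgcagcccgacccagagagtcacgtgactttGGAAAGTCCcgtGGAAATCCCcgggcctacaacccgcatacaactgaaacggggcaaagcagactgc
NFKBIA: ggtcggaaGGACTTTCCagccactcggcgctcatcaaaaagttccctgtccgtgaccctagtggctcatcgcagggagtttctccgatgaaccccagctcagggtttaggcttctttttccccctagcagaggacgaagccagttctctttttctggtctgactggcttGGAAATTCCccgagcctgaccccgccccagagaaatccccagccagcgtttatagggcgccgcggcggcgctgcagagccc
Between match and annotated start site lie 82 bases for CXCL8, 58 and 46 for the TNFAIP3 matches, and 233 and 72 for those of NFKBIA.

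Immediate early and stress transcription factors formed the next group. In the AP-1 and immediate early list, 4 of 25 genes were interaction DEGs (ATF3, JUNB, DUSP1 and JUN), all negative, and 9 were upregulated in WT cells, with list medians of 0.54 (WT) and 0.14 (PARP1-KO). ATF3, a stress-induced repressor and activator, had 113, 105, 89.3 and 104.2 CPM in untreated and 354, 368, 346 and 389 CPM in treated WT libraries. In PARP1-KO cells it had 274, 362, 325 and 327 CPM untreated and 372, 366, 314 and 403 CPM treated. Untreated PARP1-KO cells thus already lay near the treated WT level, and the 2 treated groups overlapped (interaction −1.65, SE 0.156, adjusted p = 2.28e-08).

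JUN encodes a subunit of AP-1 and had 165, 185, 213 and 200.1 CPM in untreated and 412, 490.1, 572 and 503 CPM in treated WT libraries. The PARP1-KO values were 412, 499.99, 499 and 506 CPM untreated and 753, 723, 434 and 691 CPM treated. The treated PARP1-KO libraries lay above all others except for replicate 3, which fell within the untreated range. The PARP1-KO response was 0.44 (95% interval 0.17 to 0.71, adjusted p = 1, or 2.92e-05 fitted alone without replicate 3) against 1.37 in WT cells. The interaction of −0.93 (adjusted p = 0.00963) was lost in 12 of the 16 leave-one-out fits, with adjusted p-values up to 0.0339.

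JUNB, another AP-1 subunit, had an interaction of −1.56 (SE 0.219, adjusted p = 5.73e-05). DUSP1, a phosphatase that ends MAP kinase signals, had −0.88 (adjusted p = 0.00276, or 0.0128 without PARP1-KO combination replicate 3). Without that library 2 genes of the list were called, ATF3 and JUNB. Leaving out PARP1-KO untreated replicate 3 also left 2. In the p53 target list, 2 of 25 genes were negative, GADD45A, a growth arrest gene (−1.17, SE 0.175, adjusted p = 0.000171), and PMAIP1, a BCL2 antagonist also counted in the BCL2 family (1 of 16). PMAIP1 had −0.67 (adjusted p = 0.00963) and was lost in 13 of 16 leave-one-out fits. The median of the p53 list was 0.19 in WT and 0.10 in PARP1-KO cells.

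ATF4 target genes were upregulated in WT cells as a broad group. In WT, 22 of 30 were upregulated, with a median of 0.94, against a median of 0.10 in PARP1-KO cells. The interaction was negative in 29 of 30, of which 7 passed (SLC7A11, STC2, MTHFD2, DDIT3, DDIT4, PSAT1 and XPOT) and 22 had an unadjusted p-value under 0.05. DESeq2 called 11.

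SLC7A11 encodes the cystine importer that supplies glutathione synthesis and is counted in the NRF2 and glutathione list too. It had 7.43, 13.6, 10.4 and 16.8 CPM in untreated and 63.9, 37.2, 77.0 and 83.2 CPM in treated WT libraries. PARP1-KO libraries gave 24.5, 22.5, 24.9 and 27.5 CPM untreated and 20.8, 17.96, 24.2 and 24.9 CPM treated, overlapping ranges that lay below every treated WT library. The interaction was −2.62 (SE 0.3204, adjusted p = 4.55e-06). It was the sole one of 17 genes tested of the NRF2 list to pass.

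DDIT3 encodes CHOP, a transcription factor of prolonged stress. It had 29.2, 29.04, 29.3 and 16.7 CPM in untreated and 72.8, 109.8, 79.9 and 80.2 CPM in treated WT libraries. PARP1-KO libraries had 99.3, 102.01, 79.2 and 91.6 CPM untreated and 120.97, 112, 77.9 and 119.7 CPM treated, so untreated PARP1-KO cells lay within the range of treated WT cells. The interaction was −1.50 (SE 0.237, adjusted p = 0.000401). It was not called with DMSO-treated cells as comparator (adjusted p = 0.0212, or 0.261 without both PARP1-KO libraries labelled replicate 3). STC2, a secreted glycoprotein, had −1.31 (SE 0.177, adjusted p = 3.19e-05), and MTHFD2, a mitochondrial folate enzyme, had −1.03 (SE 0.147, adjusted p = 7.8e-05).

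Further genes with a negative interaction stood in no pathway list. PPP1R15A encodes GADD34, which restarts translation after stress, and had 199.8, 159, 152 and 125.7 CPM in untreated and 511, 656, 487 and 501 CPM in treated WT libraries. In PARP1-KO cells it had 700.3, 678, 612 and 610.1 and 753, 733, 605 and 698 CPM, so untreated PARP1-KO cells overlapped treated WT cells (interaction −1.66, SE 0.172, adjusted p = 1.23e-07). TCIM ran at 11.5 to 24.5 CPM in untreated and 86.5 to 99.9 CPM in treated WT libraries, and at 52.6 to 63.7 and 45.5 to 75.6 CPM in PARP1-KO cells (interaction −2.47, SE 0.255, adjusted p = 1.23e-07). CREB5, a CREB family transcription factor, was the single interaction DEG among 248 genes spanning at least 500 kb (−1.25, SE 0.204, adjusted p = 0.000618).

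G2/M and mitosis genes made up the main group with a positive interaction. In WT cells, 20 of 30 were downregulated, with a median of −0.71 against −0.22 in PARP1-KO cells. The interaction was above 0 in 30 of 30, and 5 passed (KIF20A, PLK1, CDC20, UBE2C and AURKA), while 21 had an unadjusted p-value under 0.05. DESeq2 called 10. Without PARP1-KO combination replicate 3, 3 genes were called, KIF20A, CDC20 and PLK1. Offsets for length and GC content left 2. With DMSO-treated comparators without both PARP1-KO libraries labelled replicate 3, 1 was called.

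PLK1 is the kinase that drives entry into mitosis. It had 124.3, 144, 105 and 143 CPM in untreated and 45.6, 27.5, 38.3 and 53.2 CPM in treated WT libraries. PARP1-KO libraries had 83.5, 91.2, 79.4 and 87.3 CPM untreated and 59.2, 68.2, 84.8 and 61.0 CPM treated. Replicate 3 of the latter lay within the untreated range and the other 3 below it. The responses were −1.66 in WT and −0.32 (95% interval −0.64 to 0.00) in PARP1-KO cells, and the interaction was 1.34 (SE 0.224, adjusted p = 0.000895). With DMSO-treated cells as comparator the adjusted p-value was 0.0184, or 0.122 without both PARP1-KO libraries labelled replicate 3.

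CDC20 activates the anaphase-promoting complex and had 163, 164, 159 and 137 CPM in untreated and 75.8, 72.7, 64.6 and 60.9 CPM in treated WT libraries. In PARP1-KO cells it had 86.3, 106, 94.2 and 95.5 CPM untreated and 81.8, 91.8, 104.2 and 81.3 CPM treated. Both PARP1-KO groups overlapped and lay between the WT groups (interaction 1.09, SE 0.174, adjusted p = 0.000451, or 0.0669 with offsets for length and GC content). KIF20A, a mitotic kinesin, ran at 106 to 135 CPM in untreated and 29.1 to 42.4 CPM in treated WT libraries, and at 102.4 to 119.2 and 81.4 to 109 CPM in PARP1-KO cells (interaction 1.46, SE 0.198, adjusted p = 3.19e-05). UBE2C, a ubiquitin-conjugating enzyme of mitotic exit, had 1.10 (adjusted p = 0.0035, lost in 5 of 16 leave-one-out fits), and AURKA, a spindle pole kinase, had 1.12 (adjusted p = 0.00963, lost in 13 of 16).

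Cytosolic heat shock genes were the other group with positive values. In WT cells, 6 of 15 were downregulated, with a median of −0.81 against −0.08 in PARP1-KO cells, and 3 had a positive interaction (HSPA1B, HSPA8 and DNAJB1). HSPA1B, an inducible HSP70 with the near-identical copy HSPA1A, had 691, 520.3, 695 and 522 CPM in untreated and 96.9, 123.5, 129 and 118 CPM in treated WT libraries. In PARP1-KO cells it had 388, 489, 533 and 439 CPM untreated and 347, 333, 341 and 272 CPM treated. All treated PARP1-KO libraries lay below the untreated ones, though far less than in WT cells.

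The HSPA1B responses were −2.38 in WT and −0.52 (95% interval −0.77 to −0.27, adjusted p = 1, or 0.000872 fitted alone without replicate 3) in PARP1-KO cells, with an interaction of 1.86 (SE 0.177, adjusted p = 2.28e-08). HSPA8, the constitutive HSP70, had 1689.6, 1343, 1560.4 and 1234 CPM in untreated and 448, 553, 408 and 362 CPM in treated WT libraries. Its PARP1-KO values were 856, 820.2, 806 and 842 and 521, 594, 891 and 583 CPM. Replicate 3 of the treated PARP1-KO libraries was the highest of all PARP1-KO libraries and the other 3 were the lowest (interaction 1.36, SE 0.190, adjusted p = 5.73e-05, and 1.16 without that library). DNAJB1, an HSP40 cochaperone, had 0.80 (adjusted p = 0.00411) and was lost in 8 of 16 leave-one-out fits.

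Among windows of genes with a positive interaction, the cell cycle homology region TTTGAA was found in 4 of 13 (30.8%), against 5 of 47 with a negative interaction (10.6%) and 13.3% of all promoters. The heat shock element GAANNTTC was in 3 of 13 (23.1%: DNAJB1, HSPA1B and HSPA8), against 1 of 47 (JUN) and 5.78% of all promoters. These counts are small and describe letters on either strand. The windows of CDC20, PLK1 and HSPA1B are shown as examples of named genes with a match, 5′ to 3′ along the plus strand with the matches in capitals. CDC20 is at chr1:43358731-43358980, PLK1 at chr16:23678639-23678888 and HSPA1B at chr6:31827488-31827737 (GRCh38.p14).
CDC20: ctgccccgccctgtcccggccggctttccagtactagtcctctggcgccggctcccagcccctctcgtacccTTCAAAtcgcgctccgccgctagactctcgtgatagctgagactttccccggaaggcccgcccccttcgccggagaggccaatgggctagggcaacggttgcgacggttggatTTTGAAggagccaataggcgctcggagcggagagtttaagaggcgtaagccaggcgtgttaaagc
PLK1: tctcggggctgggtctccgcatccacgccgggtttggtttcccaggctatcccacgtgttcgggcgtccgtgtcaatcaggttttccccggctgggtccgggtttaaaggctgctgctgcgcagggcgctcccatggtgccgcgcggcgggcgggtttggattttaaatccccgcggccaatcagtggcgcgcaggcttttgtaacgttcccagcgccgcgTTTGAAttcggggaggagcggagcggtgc
HSPA1B: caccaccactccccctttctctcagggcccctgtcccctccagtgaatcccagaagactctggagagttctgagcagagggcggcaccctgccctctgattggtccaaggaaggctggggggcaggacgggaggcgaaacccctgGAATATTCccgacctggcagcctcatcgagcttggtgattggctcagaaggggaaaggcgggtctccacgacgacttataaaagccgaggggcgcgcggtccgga
Between match and start site lie 172 and 59 bases for CDC20, 23 for PLK1 and 97 for HSPA1B.

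**Figure D3:**
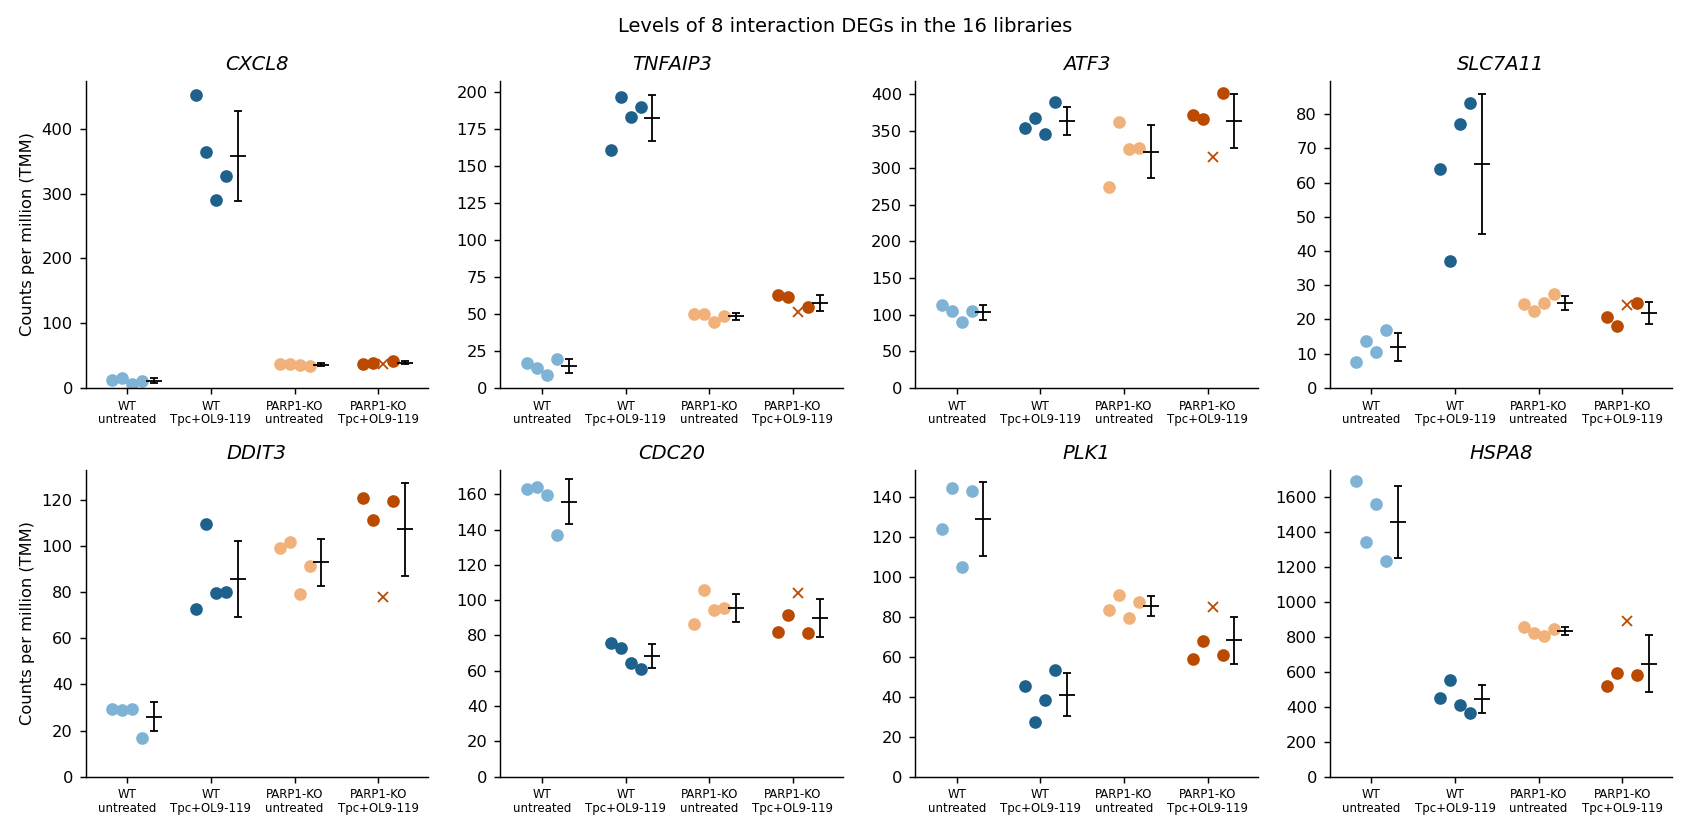
CPM of CXCL8, TNFAIP3, ATF3, SLC7A11, DDIT3, CDC20, PLK1 and HSPA8 in each of the 16 libraries, with the mean and SD of each group as a black bar (n = 4) and PARP1-KO combination replicate 3 as a cross. In each gene the WT groups are apart, as for CXCL8 with 6.19 to 15.8 against 289.6 to 452 CPM, while the PARP1-KO groups overlap in all but TNFAIP3, and without replicate 3 in CXCL8, SLC7A11 and CDC20 alone.

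Before any treatment, most of these genes already differed between the genotypes in the direction that the combination moved them in WT cells. Untreated PARP1-KO libraries lay above all untreated WT libraries for 35 of the 44 genes with a negative interaction, against 12.2% of all genes tested, below them for 2 and overlapped for 7. As DEGs of untreated PARP1-KO against WT cells, 35 of the 44 were higher (5.75% of all genes were). Of the 14 genes with a positive interaction, 10 lay below (10.4% of all genes), 1 above and 3 overlapped, and 9 were lower as DEGs (6.25% of all genes). The untreated libraries of both genotypes enter the interaction, so a gene that was high in untreated PARP1-KO cells leans toward a negative interaction by construction.

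The size of this difference varied by group. Log2 PARP1-KO over WT in untreated cells was 1.66 for CXCL8, 1.73 for TNFAIP3, 1.65 for ATF3 and 2.03 for PPP1R15A. It was −0.28 for NFKB1 (adjusted p = 0.264), which had a negative interaction without a difference in untreated cells past the threshold. Against treated WT libraries, untreated PARP1-KO libraries lay below for 25 of the 44 genes (56.8%, against 9.57% of all genes tested), overlapped for 13 and lay above for 6. For the 509 genes upregulated in WT cells, 167 lay below (32.8%), 290 overlapped and 52 lay above. Of the 14 genes, 9 lay above all treated WT libraries (3043 of the 25037 genes tested did), 4 overlapped and 1 lay below. For the 514 genes downregulated in WT cells, 189 lay above, 276 overlapped and 49 lay below. Treated WT libraries took part in the choice of all these sets, so the counts partly describe that choice.

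Between the treated groups themselves, 22 of the 44 genes were lower in PARP1-KO than in WT cells without overlap (8.76% of all genes tested were), 16 overlapped and 6 were higher. Of the 14 genes, 7 were higher (12.1% of all genes), 6 overlapped and 1 was lower. Both treated groups are terms of the interaction that chose these genes, so the counts lean in these directions by construction. On the linear CPM scale, the difference of the 2 responses kept its sign for all 44 and all 14 genes. The same libraries chose these genes, so this too leans that way by construction.

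The response of PARP1-KO cells was small but mostly in the WT direction. The 509 genes upregulated in WT cells were chosen by the WT contrast, in a fit whose dispersion estimates also use PARP1-KO libraries, and their median response was 0.80 in WT and 0.15 in PARP1-KO cells, where 444 (87.2%) lay above 0, against 50.9% of all genes tested. The 514 downregulated genes had medians of −0.71 and −0.14, with 464 below 0 in PARP1-KO cells, against 12157 of the 25037 genes tested. All 1023 had a smaller absolute response in PARP1-KO cells, as did 70.1% of all genes tested. The WT values, unlike the PARP1-KO values, were selected for size. The mean log2 level of the upregulated genes over untreated cells was 0.19, 0.16, 0.07 and 0.25 in PARP1-KO combination replicates 1 to 4 and −0.01 to 0.01 in the untreated PARP1-KO libraries, without overlap. No test was made of this difference.

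The number of WT DEGs varied with the comparator and the libraries in the fit. With DMSO-treated cells as comparator, 505 WT DEGs and 57 interaction DEGs were found, and 37 of the 58 were among the latter. Without WT combination replicate 1 or 4, 595 and 645 WT DEGs were found, and 225 when WT libraries were fitted alone.

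**Figure D4:**
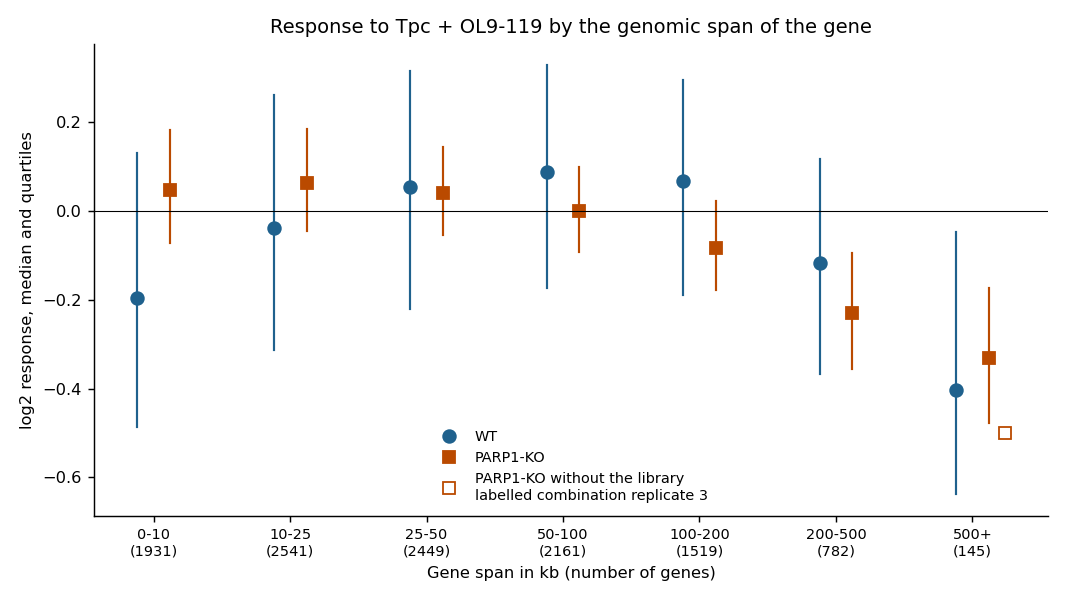
Median response to Tpc + OL9-119 (log2 fold change) by the genomic span of protein-coding genes with a mean of at least 50 counts, in WT and PARP1-KO cells, with quartiles as bars. The open square is the PARP1-KO median of the longest genes without combination replicate 3 (−0.50). The medians are −0.20 (WT) and 0.05 (PARP1-KO) for genes under 10 kb, and −0.40 and −0.33 for those of at least 500 kb.

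Most long genes had a response below 0 in both genotypes. TOP1 activity is known to ease the transcription of long genes, where supercoils accumulate. Of 145 genes spanning at least 500 kb with a mean of at least 50 counts, 80% had a response below 0 in WT (median −0.40) and 93.8% in PARP1-KO cells (median −0.33). Their median interaction was 0.03. Without PARP1-KO combination replicate 3 the PARP1-KO median was −0.50 and the median interaction −0.14. With offsets for length and GC content the medians were −0.61 in WT and −0.33 in PARP1-KO libraries. Short genes differed more, with medians of −0.20 (WT) and 0.05 (PARP1-KO) for 1931 genes under 10 kb.

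A second view of the PARP1-KO response came from leaving out combination replicate 3. In the joint fit of both genotypes, 2 genes were then called in PARP1-KO cells, MT-ND5 (−1.60, adjusted p = 2.76e-08) and TFRC, the transferrin receptor (1.02, adjusted p = 0.00448). Their interactions were 0.15 and −0.25. MT-ND5 in treated WT libraries lay at 593 to 957 CPM, and in treated PARP1-KO libraries other than replicate 3 at 544 to 708 CPM. When PARP1-KO libraries were fitted alone without this library, 267 genes were called. They came from those of the 25037 genes of the main fit that had at least 10 summed counts in these libraries. Of the 267, 44 were upregulated and 223 downregulated, and 67 were also WT DEGs, as were 4.09% of the 25037 genes. The median span of the 267 was 222 kb, against 36.0 kb for protein-coding genes with a mean of at least 50 counts. Of the 267, 27 spanned at least 500 kb, as did 248 protein-coding genes among the 25037. Among the 267, called from at most 25037 genes, were 4 of the 44 genes with a negative interaction. Of these 4, JUN (0.58), NFKBIA (0.46) and JUNB (0.40) were upregulated and the noncoding RNA NEAT1 (−0.36) was downregulated. The 267 also held 5 of the 14 with a positive one, all downregulated: AURKA (−0.59), HSPA8 (−0.57), HSPA1B (−0.56), PLK1 (−0.46) and KIF20A (−0.41). PARP1-KO libraries entered the choice of both sets, and whether these genes were called more often than others was not tested. With all 8 PARP1-KO libraries, 5 genes were called. DESeq2 without that library called 49 genes in PARP1-KO cells, and 34 positive and 92 negative interactions.

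Of the 32 interaction DEGs named by rule, 7 were not called without PARP1-KO combination replicate 3: JUN (adjusted p = 0.0201), DUSP1 (0.0128), PMAIP1 (0.0201), UBE2C (0.0159), AURKA (0.0426), DNAJB1 (0.0138) and RELB (0.0155). The other 25 were. Under every alternative that gave an adjusted p-value, 16 were called, among them CXCL8, CCL20, TNFAIP3, NFKBIA, ATF3, SLC7A11, KIF20A, HSPA1B and HSPA8.

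Genes of the drug targets did not differ in their response past the threshold. TOP1 had an interaction of −0.11 (SE 0.158, adjusted p = 0.859), TDP1 of 0.26 (SE 0.368, adjusted p = 0.857) and PARP1 of 0.21 (SE 0.152, adjusted p = 0.632). In the list of TOP1 cleavage complex repair genes, 0 of 29 tested passed with edgeR, 5 had an unadjusted p-value under 0.05, and DESeq2 called 1. TOP2A, the mitotic topoisomerase, had an interaction of 0.47 (adjusted p = 0.232). These values concern the difference between genotypes. With PARP1-KO libraries fitted alone without combination replicate 3, edgeR called TOP1 (−0.37, adjusted p = 0.00858) and TOP2A (−0.33, adjusted p = 0.00859) as downregulated. In the fit of all 40 libraries TOP1 responded by −0.15 in WT and −0.27 in PARP1-KO cells, neither past the threshold.

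Genes of translation and respiration were lower in WT cells with small changes spread over many members. Of 78 cytosolic ribosomal protein genes, 42 were downregulated in WT cells (median −0.50), or 31 in the fit of all 40 libraries. The PARP1-KO median was −0.07. Their share of counts was 9.18%, 6.87%, 8.14% and 6.04% in untreated WT replicates 1 to 4, against 5.48% to 6.36% in treated WT libraries. Replicates 1 and 3 were the untreated WT libraries with the fewest detected genes. Of the 78 genes, 0 had an interaction past the threshold with edgeR or DESeq2, though 62 had an unadjusted p-value under 0.05 with edgeR and 52 with DESeq2. RPL7A and RPS2, the most abundant of them, had interactions of 0.58 (adjusted p = 0.156) and 0.36 (adjusted p = 0.321). Nuclear-encoded subunits of complexes III to V had 17 of 34 downregulated in WT cells (medians −0.60 and −0.15), with 0 interaction DEGs by either tool and 20 (edgeR) or 19 (DESeq2) under an unadjusted p-value of 0.05. Complex I subunits had 11 of 37 downregulated (medians −0.51 and −0.10), 0 interaction DEGs by either tool, and 12 (edgeR) or 13 (DESeq2) under 0.05.

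Mitochondrially encoded genes had medians of −0.53 (WT) and −0.23 (PARP1-KO), with 0 of 13 interaction DEGs by either tool and 7 (edgeR) or 4 (DESeq2) under 0.05. Proteasome subunits had medians of −0.41 and −0.04, with 0 of 31 by either tool and 11 or 12 under 0.05. Among the further lists, 0 interaction DEGs were found with edgeR in G1/S and DNA replication genes (30 tested, 4 under 0.05, 1 called by DESeq2), endoplasmic reticulum chaperones (16, 4 and 0), interferon-stimulated genes (22, 1 and 0), splicing factors (38, 9 and 2), nucleolar ribosome biogenesis genes (30, 7 and 1) and snoRNA host genes (15, 4 and 1).

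The same contrast was computed for Tpc alone and OL9-119 alone, to set the NF-κB, ATF4, mitotic and heat shock groups beside each single compound. These comparisons share the untreated libraries with the combination, so their values are given side by side and not tested against each other. In a fit of all 40 libraries and 28922 genes, the interaction gave 78 DEGs for the combination (0.27%), 29 for Tpc (0.1%) and 19 for OL9-119 (0.0657%). Without both PARP1-KO libraries labelled replicate 3 that stood apart, the counts were 58, 30 and 21. OL9-119 was used at the same concentration in both genotypes, so its interaction does not carry the difference in Tpc dose.

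NF-κB induced genes had list medians of 1.27 (WT) and 0.05 (PARP1-KO) with Tpc, and 0.14 and 0.00 with OL9-119. With Tpc, 6 of the 22 had a negative interaction past the threshold of edgeR, and with OL9-119, 0 (4 under an unadjusted p-value of 0.05). CXCL8 responded to Tpc by 4.97 in WT and 0.07 in PARP1-KO cells (interaction −4.90, adjusted p = 4.27e-22). Its responses to OL9-119 were 0.67 and 0.28 (interaction −0.38, adjusted p = 0.813).

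For ATF4 target genes the larger WT values came with OL9-119. Their medians were 1.03 in WT and 0.13 in PARP1-KO cells with this compound, and 8 of 30 had a negative interaction past the threshold. With Tpc the medians were 0.25 and 0.03, with 0 interaction DEGs (6 under 0.05). DDIT3 responded to OL9-119 by 2.16 in WT and 0.49 in PARP1-KO cells (interaction −1.67, adjusted p = 5.33e-05), and SLC7A11 by 2.83 and 0.52 (interaction −2.31, adjusted p = 2.31e-06).

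G2/M genes had medians of −0.80 (WT) and −0.23 (PARP1-KO) with Tpc, and −0.14 and −0.05 with OL9-119. Their interaction DEGs were 3 with Tpc and 0 with OL9-119 (0 under 0.05). Heat shock genes had medians of −0.55 and −0.14 with OL9-119, where 3 passed, and −0.22 and 0.02 with Tpc, where 0 passed (2 under 0.05). HSPA1B responded to OL9-119 by −2.15 in WT and −0.55 in PARP1-KO cells (interaction 1.60, adjusted p = 2.31e-06). ATF3 had a negative interaction with each compound, −1.78 with Tpc (adjusted p = 4.99e-13) and −0.76 with OL9-119 (adjusted p = 0.00639).

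**Figure D5:**
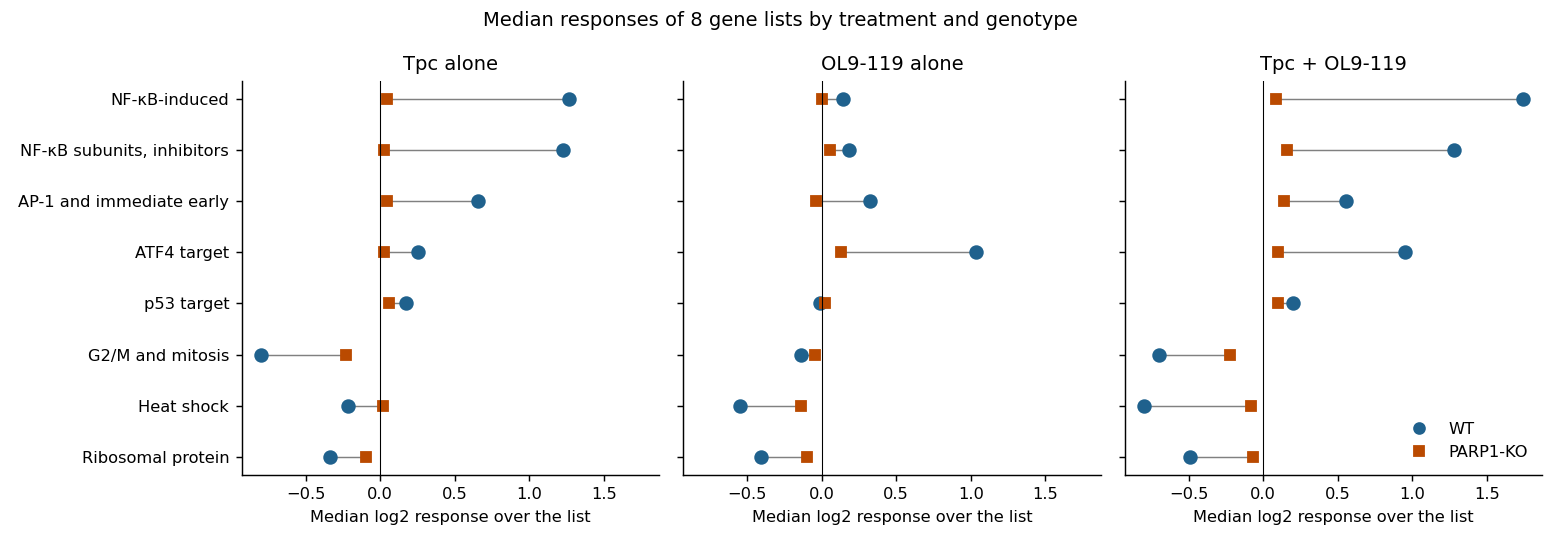
Median log2 response over untreated cells of 8 gene lists with Tpc, OL9-119 and both, in WT (circles) and PARP1-KO cells (squares), from the fit of all 40 libraries. NF-κB induced genes lie at 1.27 with Tpc and 0.14 with OL9-119 in WT cells, and ATF4 targets at 0.25 and 1.03.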

How the data were processed

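HEK293A cells of both genotypes were profiled from poly(A) RNA in directional libraries with 100 bp paired-end reads. Per the labels and the submitters' processing notes, the authors aligned reads to hg38 with STAR 2.7.8 (GeneCounts), and FastQC 0.11.9 and Picard 2.26.6 are named there too. The authors deposited raw counts per gene without normalization, and 0 columns belonged to other samples. The strand column of the counting is not given in the sources used here.

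From these counts, the 16 libraries of 4 groups with 4 replicates each were fitted with edgeR 4.0.16 in R 4.3.3 (TMM, glmQLFit with legacy = TRUE, 1 group per condition, no covariate) over 25037 of 58395 genes with at least 10 summed counts. The Benjamini-Hochberg adjustment ran over all genes tested, with a threshold of 0.01. The SE of a log2 value was derived from the F statistic. CPM values use TMM-scaled library sizes. GENCODE 44 (hg38) gave symbols for 57754 genes, and DESeq2 1.42.0 was an alternative. Total counts of 3455043 to 20379777 make counting error small for genes such as HSPA8 and large for CXCL10, CD69 and CXCL1, at means of 44.6, 57.4 and 77.3 counts.

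Promoters came from RefSeq (GRCh38.p14). Figures were drawn with matplotlib 3.10.9 and scripts ran under Python 3.11.15. The procedure was tested on simulated data. Genes named by rule were the 12 highest and 12 lowest interactions among DEGs with no exon overlap and 50 or more counts on average, PARP1, TOP1 and TDP1, and per list up to 4 called genes or, with none called, the 2 most abundant. CXCL10, ICAM1, BIRC3, DDIT4, PSAT1, XPOT, MT-ND5, TFRC, ERC1 and NEAT1 were chosen after their values were seen. The comparison, its members and the gene lists were chosen with earlier results of these data known, and the lists were compiled by hand. A further list is not reported here. Alternatives were DESeq2, RLE scaling, other filters, all 40 libraries, the replicate number or the name prefix as a term, DMSO-treated cells as comparator, other thresholds, thinning, offsets for exonic length and GC content, and each library left out. Library complexity (genes detected after thinning) as a covariate, separate fits and further exclusions were added after seeing the data.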

Additional observations from a re-analysis of the deposited data

Results flagged for a closer look

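The difference between the genotypes was itself tested, and the results that passed are listed for a closer look. There were 58 interaction DEGs, of which the 32 named by rule are listed. Others, among them CXCL10, ICAM1 and BIRC3, are not ranked here, and CXCL10 had the most negative value of all 58 (−6.29 on the log2 scale). The most negative interactions among genes named by rule were those of CD69 (−5.39), CXCL8 (−4.87), CXCL1 (−4.28), CCL20 (−4.12), TNFAIP3 (−3.40), SLC7A11 (−2.62), TCIM (−2.47) and TNFRSF9 (−2.33). Those of NFKBIA (−1.77), IER3 (−1.77), PPP1R15A (−1.66), ATF3 (−1.65), JUNB (−1.56), DDIT3 (−1.50), NFKB1 (−1.50), RELB (−1.49), STC2 (−1.31), NFKB2 (−1.26), CREB5 (−1.25), GADD45A (−1.17) and MTHFD2 (−1.03) lay between −1.77 and −1.03. JUN (−0.93), DUSP1 (−0.88) and PMAIP1 (−0.67) were the least negative among genes named by rule. The positive ones named by rule were DNAJB1 (0.80), CDC20 (1.09), UBE2C (1.10), AURKA (1.12), PLK1 (1.34), HSPA8 (1.36), KIF20A (1.46) and HSPA1B (1.86). Tpc dose and genotype cannot be told apart in these values.

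A library stood far from the other 3 of its group in 19 of 170 sets of 4 values examined (11.2%). Chance flags about 1 in 20 sets, but these sets share libraries and include genes chosen for the libraries that stood apart, so the share is not read against it. Several of these were in the library labelled PARP1-KO combination replicate 3: the mean log2 level of genes spanning at least 500 kb was 0.031 against −0.50 to −0.47, MT-ND5 2138 CPM against 544 to 708, ERC1 111 CPM against 45.0 to 51.4 and RELB 21.3 CPM against 31.6 to 32.8. In the library labelled PARP1-KO DMSO replicate 3, the same long-gene level was −0.34 against 0.01 to 0.02, the mean log2 level of the DEGs downregulated in WT −0.30 against −0.02 to −0.004, and ERC1 55.9 CPM against 97.1 to 103.6.

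Untreated PARP1-KO replicate 1 stood apart in CCL20 (15.5 CPM against 10.4 to 10.99), JUNB (120.1 against 148 to 151), UBE2C (59.2 against 87.6 to 88.4), JUN (412 against 499 to 506), PARP1 (43.4 against 33.1 to 34.3) and TOP1 (518 against 414 to 432). Untreated WT replicate 4 was low in DDIT3 (16.7 CPM against 29.04 to 29.3) and CDC20 (137 against 159 to 164), and untreated WT replicate 1 was high in DUSP1 (129 against 98.1 to 101.3). Among treated WT libraries, replicate 1 was low in IER3 (200.1 CPM against 239 to 240.3) and high in AURKA (66.3 against 38.9 to 42.7), and replicate 2 was high in PPP1R15A (656 against 487 to 511).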

How the results depend on the processing

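For the interactions of named genes under the alternatives, 987 values kept their direction and side of the threshold, 98 lost their call and 1 reversed, that of TOP1, which was −0.11, never past the threshold, and turned to 0.16 with offsets for length and GC content. Among counts, medians and other values, 439 kept their direction and rough size, 25 were weaker, 20 stronger and 8 moved. Interaction DEGs (58) numbered 161 with DESeq2 (54 positive), 143 without a filter, 109 at an adjusted p-value under 0.05 and 33 with DMSO-treated comparators without both PARP1-KO libraries labelled replicate 3, and ran from 37 to 107 with single libraries left out. DEGs in WT (1023) numbered 1833 with DESeq2 (919 upregulated and 885 downregulated without PARP1-KO combination replicate 3), 505 with either DMSO comparator, 2203 at 0.05, 231 with an absolute log2 value of at least 1 and 225 with WT alone, and 595 to 1522 with single libraries left out. With length and GC offsets, 229 were upregulated and 779 downregulated. DEGs in PARP1-KO cells (0) numbered 6 without a filter, 1 with the DMSO comparator without both libraries, 8 without WT untreated replicate 3 and PARP1-KO combination replicate 3, 49 with DESeq2 without the latter, 5 in PARP1-KO cells alone and 267 there without it, and 0 to 2 with single libraries left out. The median PARP1-KO response of genes downregulated in WT (−0.14) was −0.21 with the DMSO comparator without both libraries and −0.20 with each genotype alone, over the 215 and 99 genes then downregulated in WT instead of 514. The cause of these changes was not tested.

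Replicate numbers showed no clear pairing of the libraries, though only 4 same-numbered pairs per genotype could be compared. Deviations of same-numbered libraries correlated at −0.13 to 0.19 in WT cells (mean −0.02, against 0.02 for different numbers). In PARP1-KO cells they correlated at −0.11 to 0.22 (mean 0.02, against −0.001). A replicate block gave 82 interaction, 1242 WT and 2 PARP1-KO DEGs. A replicate block within genotype gave 142 interaction and 7 PARP1-KO DEGs. With the library name prefix as a term, 64 interaction DEGs were found, 55 of them among the 58.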
